A study of Mus musculus with 40 samples.

Results

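The miR-15/16 family was followed in total blood of ageing mice through 5 mature microRNAs: mmu-miR-15a-5p, mmu-miR-15b-5p, mmu-miR-15b-3p, mmu-miR-16-5p and mmu-miR-195a-5p. They were chosen by name, and all 5 names were found among the 1915 microRNAs of the count table, 1016 of which had any read. No member had the same counts as another microRNA in all libraries. Blood came from male C57B/6J wild-type mice, single housed, bled from the retro-orbital sinus at 12, 13.5, 15 and 16.5 months, and small RNA was sequenced in 10 libraries per age, 40 in all. The mice carried no transgene, received no test compound and were anesthetized with isoflurane at each bleeding. The study kept a group trained in the water maze and a home cage group, and the labels do not say which library came from which. Its methods place the bleeding at 12 months before any maze test, whereas the bleedings at later ages of the trained mice followed a memory test, so that age and maze experience cannot be told apart in them. The same mice were bled repeatedly, but the libraries were tested as independent, because no label ties a library to an animal.

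MicroRNAs of this family begin with the same bases and share a seed, the stretch near the 5′ end (bases 2 to 8) that pairs with target messenger RNAs. The guide strands are known for holding back the cell cycle through targets such as cyclins, and for lowering Bcl2, an inhibitor of cell death. The mouse genome holds them as pairs of neighbouring hairpins: miR-15a with one copy of miR-16, miR-15b with the other copy of miR-16, and miR-195a near miR-497a. Loss of the miR-15a/16-1 locus is a well known lesion of chronic lymphocytic leukaemia in people, and miR-16 is abundant in red blood cells. Each hairpin gives a 5p and a 3p arm, and the 5p arm is the usual guide here.

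The mature sequences (RefSeq, GRCm38.p6, the assembly that mm10 names) show what the members share and where they part. Capitals mark the seed.
mmu-miR-16-5p: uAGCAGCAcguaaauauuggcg
mmu-miR-195a-5p: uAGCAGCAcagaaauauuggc
mmu-miR-15a-5p: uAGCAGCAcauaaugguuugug
mmu-miR-15b-5p: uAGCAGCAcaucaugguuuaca
mmu-miR-15b-3p: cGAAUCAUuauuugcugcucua
All 5p members carry the seed AGCAGCA, and mmu-miR-15b-3p carries GAAUCAU. Past the seed the 5p members fall into 2 pairs. mmu-miR-15a-5p and mmu-miR-15b-5p have 18 of 22 positions in common, and mmu-miR-16-5p and mmu-miR-195a-5p have 19 of 21, against 14 to 16 positions between members of different pairs. Any 2 of the 5p members are identical over their first 9 to 11 bases.

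Mir15b lies at chr3:69009772-69009835 and Mir16-2 at chr3:69009902-69009996, both on the plus strand, with 66 bases between them, in an intron of Smc4 (GENCODE M21), which encodes a condensin subunit. Mir16-1 lies at chr14:61631880-61631972 on the minus strand in an exon of Dleu2, a long non-coding RNA gene. The mature arms of Mir15a lie within an intron of the same gene, at higher coordinates, 65 bases from the Mir16-1 hairpin. The annotated Mir15a gene reaches past these arms (chr14:61632027-61632110). Mir195a lies at chr11:70235042-70235135 on the plus strand, with no other annotated gene over it. Both copies of miR-16 give the same mature 5p sequence (chr3:69009918-69009939 and chr14:61631936-61631957), so the count of mmu-miR-16-5p is a sum over both loci and could not be split. The Mir15b hairpin is shown because both of its arms are members; capitals mark the 5p arm first and the 3p arm second.
Mir15b: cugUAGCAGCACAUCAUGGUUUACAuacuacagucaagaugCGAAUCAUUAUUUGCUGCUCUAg

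Libraries held 2469196 to 21386209 counts, with medians of 12497974, 12505001, 6196820 and 8771193 at 12, 13.5, 15 and 16.5 months. Library names in the count table took different forms. Those of 12 and 16.5 months held a letter alone, those of 13.5 months an A with a number, and those of 15 months a B (3 libraries) or a C (7 libraries) with a number. What the forms stand for is not stated, and form and age cannot be told apart in any comparison with 13.5 or 15 months. Only 16.5 against 12 months compares libraries of the same form. Liver-specific miR-122-5p was at or near 0 (highest 0.183 CPM, that is, counts per 1000000), while red-cell, myeloid and lymphoid microRNAs were present at every age. In such bulk blood, fewer cells of a type and less RNA per cell cannot be told apart.

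mmu-miR-16-5p was the family's main product in blood. Levels are given in CPM scaled by TMM factors, which correct for differences in library composition. mmu-miR-16-5p ranged from 3325 to 8102 CPM at 12 months (median 5549) and from 4049 to 9585 at 13.5 months (median 5318). It ranged from 2100 to 5061 at 15 months (median 3771) and from 2408 to 6400 at 16.5 months (median 4223). The ranges of all 4 ages overlapped, with 15 months holding the lowest library and 13.5 months the highest.

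mmu-miR-15b-5p was the next most abundant member. Its 10 libraries lay between 141 and 200 CPM at 12 months (median 168), between 208 and 401 at 13.5 months (median 276), between 83.7 and 202 at 15 months (median 138) and between 98.3 and 166 at 16.5 months (median 149). Every library of 13.5 months was above every library of the other ages.

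mmu-miR-15a-5p, a product of the chromosome 14 pair, stood lower. Its lowest, median and highest libraries were 33.7, 46.6 and 81.0 CPM at 12 months and 46.6, 65.4 and 133 at 13.5 months. At 15 months they were 14.5, 35.6 and 65.4 CPM, and at 16.5 months 23.1, 35.5 and 47.5. It was highest at 13.5 months like mmu-miR-15b-5p, but with overlap between neighbouring ages.

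mmu-miR-195a-5p and mmu-miR-15b-3p were the rarest members. mmu-miR-195a-5p had medians of 9.05, 7.57, 7.42 and 7.42 CPM in order of age and a whole range of 1.28 to 13.9. mmu-miR-15b-3p had medians of 10.4, 7.74, 9.86 and 12.2 CPM, with ranges of 8.6 to 15.1, 3.89 to 13.5, 4.94 to 13.4 and 9.23 to 16.7. The 3p arm was thus lowest at the age at which its partner arm was highest.

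**Figure D1:**
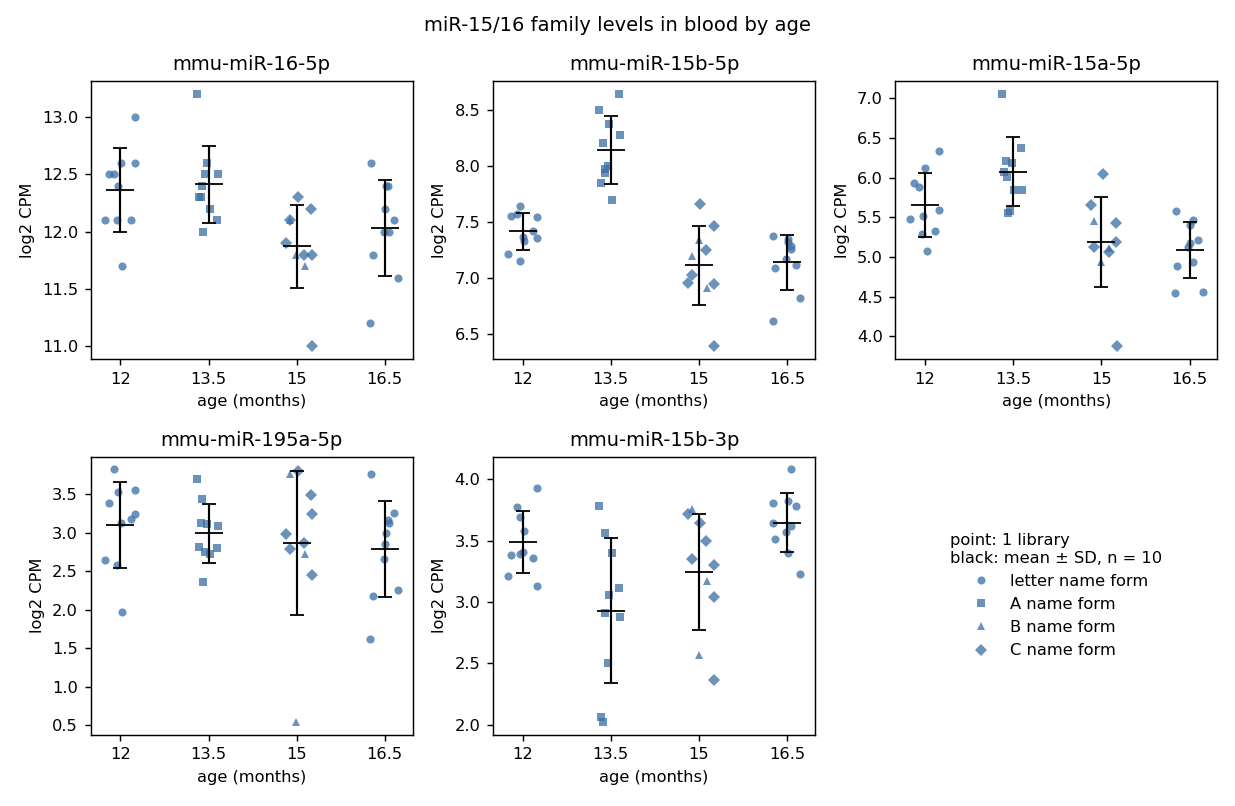
Level of each member (log2 CPM, vertical axes) by age in months (horizontal axes), 1 point per library, with the mean and SD of 10 libraries in black and the form of the library name as the point's shape. The 10 libraries of 13.5 months lie above all others for mmu-miR-15b-5p (208 to 401 CPM), while mmu-miR-15b-3p is lowest at that age (median 7.74 CPM).

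Of the 10 mouse microRNAs with this seed in the reference, 6 had reads. mmu-miR-16-5p made up a median of 95.2% of their summed counts (range 90.0% to 96.6% over 40 libraries). mmu-miR-15b-5p contributed a median of 3.53%, mmu-miR-15a-5p 0.915% and mmu-miR-195a-5p 0.142%. At 13.5 months the share of mmu-miR-15b-5p had a median of 4.58% and reached 8.02% in 1 library, against medians of 3.14%, 3.61% and 3.25% at the other ages. The summed level of the seed had medians of 5815, 5635, 3963 and 4412 CPM in order of age, which followed mmu-miR-16-5p.

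Age was tested with edgeR's quasi-likelihood F-test over the 4 ages, with Benjamini-Hochberg adjustment over the 105 microRNAs that had more than 100 counts in at least 20 of the 40 libraries and a threshold of 0.05. 4 of the 5 members passed this filter. mmu-miR-16-5p and mmu-miR-15b-5p exceeded 100 counts in all 40 libraries, mmu-miR-15a-5p in 36 and mmu-miR-15b-3p in 22, of which 10 were of 12 months, 5 of 13.5, 7 of 16.5 and 0 of 15 months. mmu-miR-195a-5p did so in 17 and was tested only in the fit with a low filter (more than 1 count in at least 20 libraries, 345 microRNAs). Of the 4 members tested, 4 differed over age, where 61.0% of all 105 microRNAs did. The edgeR adjusted p was 2.94e-09 for mmu-miR-15b-5p, 6.68e-05 for mmu-miR-15a-5p, 0.00757 for mmu-miR-16-5p and 0.0092 for mmu-miR-15b-3p. For mmu-miR-195a-5p it was 0.834 in the low-filter fit, in which 39.1% of 345 microRNAs passed. The call of mmu-miR-16-5p was lost without the 3 B libraries of 15 months (adjusted p = 0.0639), and that of mmu-miR-15b-3p with 3 factors of unwanted variation in the fit (adjusted p = 0.205).

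Between 12 and 13.5 months the products of the miR-15b hairpin changed in opposite directions. mmu-miR-15b-5p rose 1.69-fold (log2 fold change 0.76, SE 0.13, edgeR adjusted p = 7.56e-06), and the ranges of the 2 ages did not overlap. mmu-miR-15b-3p fell to 0.709-fold (log2 -0.50, SE 0.18, edgeR adjusted p = 0.028), with 8 of 10 libraries of 13.5 months below the mean at 12 months. mmu-miR-15a-5p had a log2 fold change of 0.43 (SE 0.19) that did not pass (adjusted p = 0.0825), and mmu-miR-16-5p one of 0.05 (SE 0.16, adjusted p = 0.845). With 1 or 3 factors of unwanted variation, a correction of the kind the study names, mmu-miR-15a-5p passed (log2 0.59, adjusted p = 1.26e-05, and log2 0.55, adjusted p = 2.85e-05). So 2 of 4 members passed, against a background of 29.5% of the 105. With library totals in place of TMM factors neither passed (adjusted p = 0.0668 for mmu-miR-15b-5p and 0.407 for mmu-miR-15b-3p), and the call of mmu-miR-15b-3p was also lost with no filter (0.0696) and with 3 factors of unwanted variation (0.0957). All 7 red-cell microRNAs listed had reads, and 3 of the 6 tested differed over age, against 61.0% of the 105. The list names miR-486a and miR-486b separately although their rows hold equal counts, so these are not counts of distinct microRNAs. The 3 outside miR-486 summed to medians of 6134 CPM at 12 months (range 2952 to 12070), 2977 at 13.5 months (2050 to 8243), 5352 at 15 months (1714 to 10470) and 3959 at 16.5 months (1360 to 6723). The 3 lymphoid microRNAs listed summed to medians of 243 CPM (range 101 to 374), 373 (122 to 599), 294 (139 to 428) and 357 (137 to 873). Of the 2 lymphoid microRNAs tested, 2 differed over age. The 5 myeloid microRNAs listed summed to medians of 2872 CPM (2281 to 3870), 2362 (1487 to 3141), 2943 (1998 to 4479) and 2589 (1823 to 3795). Of the 3 myeloid microRNAs tested, 0 differed over age. The part of any of these cell types in the differences of the members was not tested.

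From 13.5 to 15 months all 3 of the 5p members tested fell. mmu-miR-15b-5p fell to 0.491-fold (log2 -1.03, SE 0.13, edgeR adjusted p = 2.77e-08), again with no overlap between ages. mmu-miR-15a-5p fell to 0.552-fold (log2 -0.86, SE 0.20, adjusted p = 0.000374), and mmu-miR-16-5p to 0.682-fold (log2 -0.55, SE 0.16, adjusted p = 0.00407). The log2 fold change of mmu-miR-15b-3p was 0.32 (SE 0.18, adjusted p = 0.141), which passed under 5 alternatives and was -0.42 with library totals. In all, 3 of 4 members passed, against 47.6% of the 105 microRNAs. Without the 3 B libraries of 15 months the call of mmu-miR-16-5p was lost (log2 -0.43, adjusted p = 0.0583), while mmu-miR-15b-5p and mmu-miR-15a-5p passed under every alternative run. Library totals placed the median of the 105 microRNAs at a log2 of -0.81 in this comparison, and relative to that median mmu-miR-15b-5p stood at -0.95, mmu-miR-15a-5p at -0.76, mmu-miR-16-5p at -0.47 and mmu-miR-15b-3p at 0.39.

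The comparison of 16.5 with 13.5 months shares the libraries of 13.5 months with the preceding one, and is given beside it for that reason. mmu-miR-15b-5p was lower at 0.493-fold (log2 -1.02, SE 0.13, edgeR adjusted p = 2.11e-08), with ranges that did not overlap. mmu-miR-15a-5p was lower at 0.499-fold (log2 -1.0, SE 0.20, adjusted p = 4.51e-05), and mmu-miR-15b-3p was higher at 1.59-fold (log2 0.67, SE 0.18, adjusted p = 0.00234). mmu-miR-16-5p differed by a log2 of -0.38 (SE 0.16, adjusted p = 0.0577). That made 3 of 4 members, against 40% of the 105. The call of mmu-miR-15b-3p was lost with library totals (adjusted p = 0.255) and with 3 factors of unwanted variation (0.221), whereas that of mmu-miR-16-5p was gained under 4 alternatives, among them the fit of these 2 ages alone (0.0351).

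Against 12 months, fewer members passed at 15 and 16.5 months. At 15 months mmu-miR-16-5p was lower at 0.708-fold (log2 -0.50, SE 0.16, edgeR adjusted p = 0.0226), with all 10 libraries below the mean at 12 months, and 1 of 4 members passed against 23.8% of the 105. This call was lost without the 3 B libraries (0.107), without the miR-486 rows (0.0676) and with no filter (0.0526). At 16.5 months mmu-miR-15a-5p was lower at 0.674-fold (log2 -0.57, SE 0.19, edgeR adjusted p = 0.0273), again in 10 of 10 libraries, and it was the 1 of 4 members to pass, against 23.8% of the 105. It was lost without the single library of 16.5 months that stood apart from the rest (connectivity Z-score beyond 2.5, adjusted p = 0.0537), with library totals (0.225) and with no filter (0.0628).

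Between 15 and 16.5 months 0 of 4 members passed in the edgeR fit, against 28.6% of the 105, and 0 of 4 had an unadjusted p under 0.05. DESeq2 and limma-voom also gave 0, and library totals gave 3, with the median of all 105 microRNAs itself moved by 0.65 on the log2 scale. The log2 fold changes ran from -0.15 for mmu-miR-15a-5p (SE 0.20) to 0.35 for mmu-miR-15b-3p (SE 0.18).

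mmu-miR-195a-5p passed in none of the 6 comparisons of the low-filter fit, with log2 fold changes between -0.24 (SE 0.24) and 0.06 (SE 0.25). Its counts were low, with a median of 44 counts at 15 months and 2 counts in the lowest library, which limits what could be seen for this member.

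**Figure D2:**
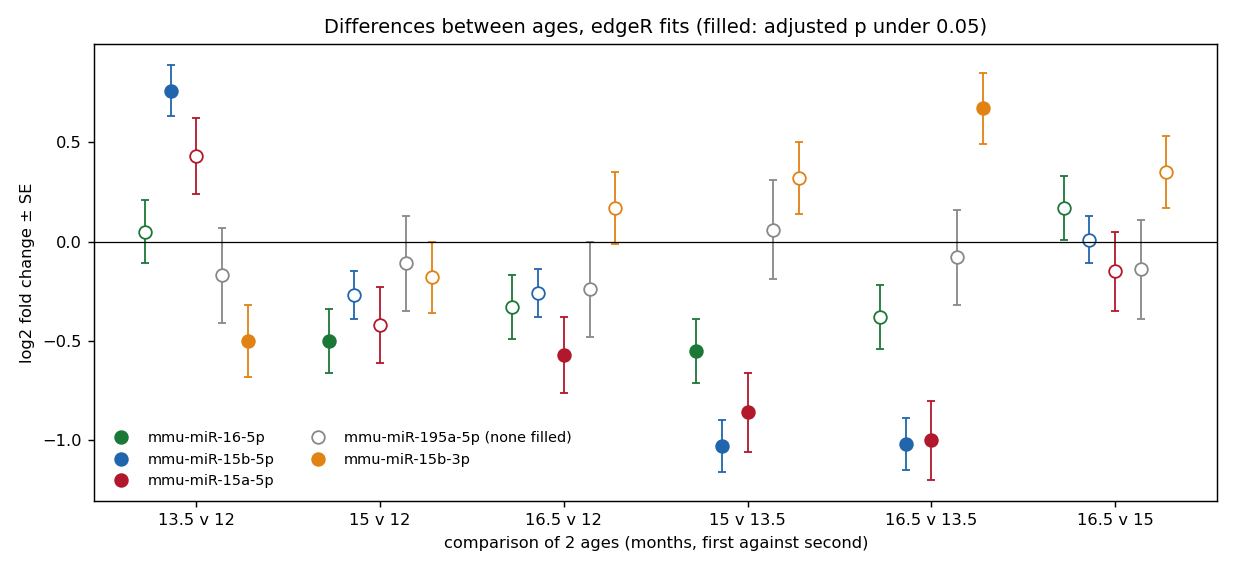
Log2 fold change (vertical axis, with SE bars) of each member for the 6 comparisons of 2 ages (horizontal axis, months, first age against second), from edgeR fits; filled points had an adjusted p under 0.05. mmu-miR-15b-5p stands at 0.76 for 13.5 against 12 months and at -1.03 and -1.02 for 15 and 16.5 against 13.5 months, while mmu-miR-15b-3p lies on the other side of 0 in those 3 comparisons, though with library totals it is at -0.42 for 15 against 13.5 months, where the median of all 105 microRNAs is at -0.81.

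Ordered by mean level, mmu-miR-15b-5p and mmu-miR-16-5p ran from 13.5 over 12 and 16.5 down to 15 months, and mmu-miR-15a-5p from 13.5 over 12 and 15 down to 16.5 months. For mmu-miR-15b-5p only the step from 13.5 to 12 months passed among neighbours in that order. For mmu-miR-16-5p and mmu-miR-15a-5p no neighbouring step passed. mmu-miR-15b-3p ran from 16.5 over 12 and 15 down to 13.5 months, likewise with no neighbouring step past the threshold.

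The arms of the miR-15b hairpin were next compared as a ratio of counts within each library, which needs no scaling between libraries. Both arms come from the same precursor, so a ratio that moves says that the reads of the arms did not move together. At 12 months there were 12.4 to 19.0 counts of mmu-miR-15b-5p per count of mmu-miR-15b-3p (median 15.7). At 13.5 months there were 20 to 76.0 (median 41.9), at 15 months 9.52 to 26.8 (median 13.5) and at 16.5 months 7.8 to 15.6 (median 12.0). All 10 libraries of 13.5 months had a higher ratio than any library of 12 or 16.5 months, and the highest library of 15 months (26.8) lay within their range.

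The 5p to 3p ratio of miR-15b was 2.47-fold higher at 13.5 than at 12 months (log2 1.30, SE 0.21; two-sided permutation test with 100000 resamples, p = 3e-05, adjusted p = 0.00058). The adjustment was over the 29 hairpins that had a median of at least 10 counts of both arms at every age. Of these, 17.2% passed in this comparison, and miR-15b was 1 of only 2 hairpins that passed with a gain of the 5p arm; the other was miR-142a (log2 1.38). Over the 29 hairpins the median difference was -0.20 on the log2 scale. The ratio of miR-15b was lower at 15 than at 13.5 months (log2 -1.37, SE 0.24, permutation adjusted p = 0.000812), in a comparison in which 37.9% of the hairpins passed in either direction. At 16.5 months, too, it was below its value of 13.5 months (log2 -1.75, SE 0.21, permutation adjusted p = 0.00029, against 44.8% of hairpins), the lowest difference of all 29.

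The ratio of miR-15b was also lower at 16.5 than at 12 months, the comparison between libraries with the same form of name (log2 -0.45, SE 0.11, 9 of 10 libraries, permutation adjusted p = 0.00681), where 48.3% of the hairpins passed and the median over the 29 was -0.26. It did not pass at 15 against 12 months (log2 -0.07, SE 0.16, permutation adjusted p = 0.90, against 13.8% of hairpins), nor at 16.5 against 15 months (log2 -0.38, SE 0.17, permutation adjusted p = 0.10, against 17.2%). These 6 calls were the same under all 5 alternatives run for this ratio. The 3p arm had a median of 47.5 counts at 15 months and 9 in its lowest library, so that single ratios of that age carry the widest counting error.

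**Figure D3:**
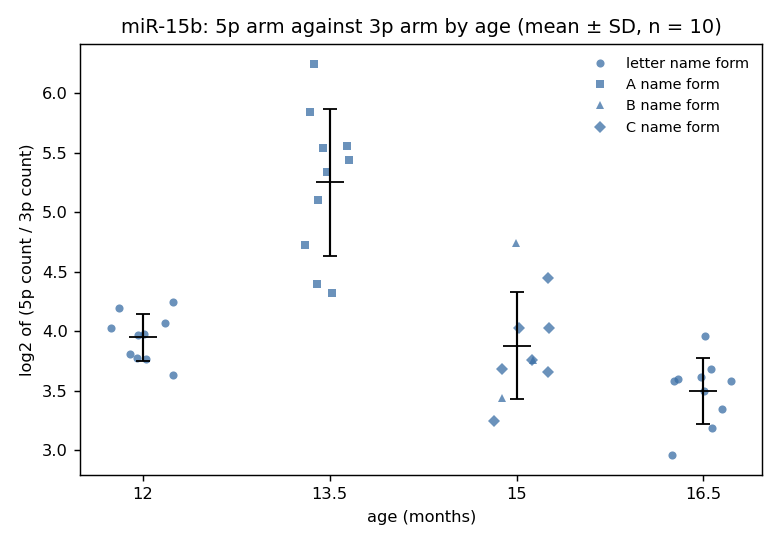
Log2 of the ratio of mmu-miR-15b-5p to mmu-miR-15b-3p counts (vertical axis) by age in months (horizontal axis), 1 point per library, with the mean and SD of 10 libraries. The libraries of 13.5 months (mean 5.25) lie above all those of 12 (mean 3.95) and 16.5 months (mean 3.50).

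The miR-15a hairpin was another of the 29, through its 3p arm mmu-miR-15a-3p, which had 1268 counts over the 40 libraries. Its 5p to 3p ratio had medians of 22.1, 29.8, 10.1 and 16.6 in order of age, so its lowest age was 15 months. It fell from 12 to 15 months (log2 -1.27, SE 0.25, permutation adjusted p = 0.00087), and from 13.5 to 15 months (log2 -1.49, SE 0.18, permutation adjusted p = 0.000145, with ranges that did not overlap). Between 12 and 13.5 months its difference of 0.22 (SE 0.24) did not pass (permutation adjusted p = 0.59). Whether the hairpins differ in this comparison was not tested. From 13.5 to 16.5 months it fell (permutation test, log2 -0.75, SE 0.21, adjusted p = 0.00971), and from 15 to 16.5 months it rose (log2 0.74, SE 0.22, adjusted p = 0.023). At 16.5 against 12 months, between libraries with the same form of name, it did not pass (log2 -0.53, SE 0.27, permutation adjusted p = 0.121, against 48.3% of hairpins). The 3p arm of miR-15a had a median of 17.5 counts at 15 months, so that single ratios of that age carry a wide counting error.

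**Figure D4:**
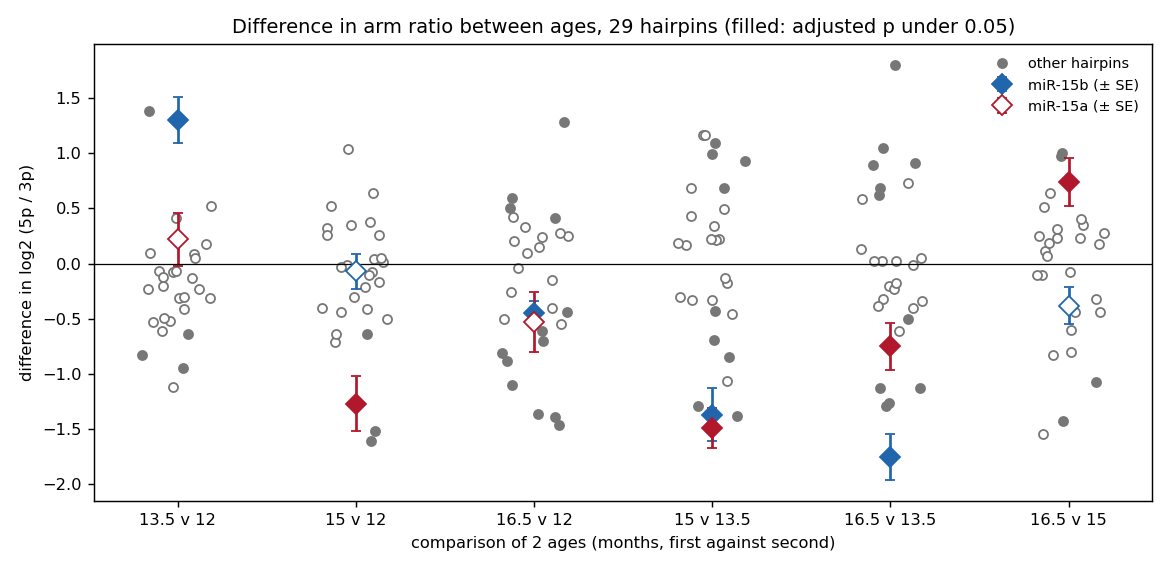
Difference in log2 5p to 3p ratio (vertical axis) of 29 hairpins for the 6 comparisons of ages (horizontal axis, months, first against second), with miR-15b in blue and miR-15a in red (bars, SE); filled points had an adjusted p under 0.05 by permutation. miR-15b lies at 1.30 for 13.5 against 12 months, next to miR-142a at 1.38, and at -1.75 for 16.5 against 13.5 months, below all others.

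Ratios between guide strands of the same library compared the hairpins with each other, in 30 comparisons with the arm ratio of miR-15b included, of which 12 passed. There were 0.0329 counts of mmu-miR-15b-5p per count of mmu-miR-16-5p at 12 months (median, range 0.0232 to 0.0483), 0.0486 at 13.5 months (range 0.0376 to 0.0892), 0.038 at 15 months (range 0.0296 to 0.0467) and 0.034 at 16.5 months (range 0.0259 to 0.0409). The ratio was 1.60-fold higher at 13.5 than at 12 months (permutation p = 0.00018, adjusted over the 30 comparisons 0.0009; 10 of 10 libraries). It fell from 13.5 to 15 months (log2 -0.49, SE 0.13, permutation adjusted p = 0.0024) and lay lower at 16.5 months than at 13.5 (log2 -0.62, SE 0.13, permutation adjusted p = 0.0005). It did not pass at 15 against 12 months (log2 0.19, SE 0.12, permutation adjusted p = 0.19) or at 16.5 against 12 months (log2 0.06, SE 0.12, permutation adjusted p = 0.701). Nor did it at 16.5 against 15 months (log2 -0.13, SE 0.09, permutation adjusted p = 0.253). Since the count of mmu-miR-16-5p is a sum over Mir16-1 and Mir16-2, the ratio does not compare Mir15b with its neighbour Mir16-2 alone.

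The ratio of mmu-miR-15a-5p to mmu-miR-16-5p was 1.29-fold higher at 13.5 than at 12 months (log2 0.37, SE 0.11, permutation adjusted p = 0.0117) and lower at 16.5 than at 13.5 months (log2 -0.59, SE 0.11, permutation adjusted p = 0.000675). At 16.5 months it lay below its value of 12 months (log2 -0.23, SE 0.07, permutation adjusted p = 0.0136), with 9 of 10 libraries below the mean of 12 months. It did not pass at 15 against 12 months (log2 0.03, SE 0.10, permutation adjusted p = 0.819). Its differences at 15 against 13.5 months (log2 -0.34, permutation adjusted p = 0.0485) and at 16.5 against 15 months (log2 -0.26, permutation adjusted p = 0.0396) were both lost without the 3 B libraries. The ratio of mmu-miR-15a-5p to mmu-miR-15b-5p passed in none of its 6 comparisons (smallest permutation adjusted p = 0.0666, with 1 of 6 unadjusted p-values under 0.05), and its medians lay between 0.233 and 0.296. Nor did that of mmu-miR-195a-5p to mmu-miR-16-5p (smallest permutation adjusted p = 0.164), but without the 3 B libraries it passed in 3 comparisons with 15 months, with log2 differences of 0.50, 0.66 and -0.46.

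Across the 40 libraries, the log2 CPM of mmu-miR-16-5p and mmu-miR-15a-5p had a Pearson r of 0.858, that of mmu-miR-15a-5p and mmu-miR-15b-5p 0.829 and that of mmu-miR-16-5p and mmu-miR-15b-5p 0.677. The arms of miR-15b had an r of -0.228, and 0.337 once the age means were removed. These are descriptions over libraries that share scaling factors and age. Among the other microRNAs of the main fit, mmu-miR-15a-5p was most like mmu-miR-93-5p (r = 0.952), and mmu-miR-16-5p was also most like mmu-miR-93-5p (r = 0.872), followed by mmu-let-7g-5p (0.817) and mmu-miR-23b-3p (0.706). mmu-miR-15b-5p was most like mmu-let-7i-5p (0.879), mmu-let-7j (0.875) and mmu-miR-103-3p (0.853). mmu-miR-15b-3p had other neighbours, mmu-miR-30e-5p (0.749), mmu-miR-186-5p (0.731) and mmu-miR-144-5p (0.712). With the age means removed, the r of mmu-miR-15a-5p with mmu-miR-93-5p was 0.925. In the order named, it was then 0.865, 0.73 and 0.591 for the neighbours of mmu-miR-16-5p and 0.623, 0.678 and 0.563 for those of mmu-miR-15b-5p. For those of mmu-miR-15b-3p it was 0.707, 0.628 and 0.585.

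The remaining rows of the family, 12 in number, were sparse. 9 of them had reads, 0 passed the main filter and 6 passed the low filter, of which 0 differed over age by edgeR, with or without adjustment of the p-values, where 39.1% of the 345 microRNAs of that fit passed. mmu-miR-322-5p, which carries the same seed, had medians of 81.5, 51.5, 21 and 39.5 counts in order of age (adjusted p = 0.126 in the low-filter fit). mmu-miR-497a-5p, the neighbour of miR-195a, had medians of 22, 18.5, 7 and 7 counts (adjusted p = 0.247). mmu-miR-15a-3p had medians of 42, 27, 17.5 and 21.5 counts (adjusted p = 0.115), and the passenger strand of Mir16-2 had 121 counts in all against 32 for that of Mir16-1. The last pair of totals is too small to apportion mmu-miR-16-5p between its loci.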

How the data were processed

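The authors trimmed adapters with cutadapt, checked reads with FastQC 0.11.5 (per the labels), discarded short reads and counted mature microRNAs of miRBase with miRDeep2 at 0 mismatches, with mm10 as the genome. The deposited values are raw counts per mature microRNA, summed over genomic copies. The rows of miR-486a and miR-486b hold equal counts, so totals hold those reads in both rows. The deposited normalized table was not used here. The methods of the study name RUVs factors and DESeq2.

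Counts were tested in edgeR 4.0.16 (R 4.3.3): TMM factors, glmQLFit and glmQLFTest over the 40 libraries. Standard errors were obtained by dividing each fold change (log2, without sign) by the root of its F statistic. Ratios were log2 of (count + 0.5) over (count + 0.5). Alternatives were DESeq2 1.42.0, limma 3.58.1 with voom quality weights, other factors, filters and samples, and 1 or 3 RUVs factors. The p-values measure spread between libraries, which come from repeatedly bled mice. Amplified reads overstate independent molecules.

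Columns were mapped to ages by name, with no replicate number of the labels. The members and lists were chosen with earlier results of these data known. All 5 members, listed family rows and the 3 microRNAs nearest to each tested member are named; miR-142a was named after its value was seen.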

Additional observations from a re-analysis of the deposited data

Results flagged for a closer look

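In 44 groups of 10 libraries (5 member levels and 6 ratios at 4 ages), 5 had a single library far from the others by Dixon's 95% criterion (gap to the nearest library over the whole range), where chance gives about 1 in 20. At 13.5 months the highest library of mmu-miR-16-5p stood at 13.2 log2 CPM, with the next at 12.6. The other 4 were the lowest values of 15 months, and they shared libraries. mmu-miR-16-5p stood there at 11.0 log2 CPM (next 11.7), mmu-miR-15a-5p at 3.87 (next 4.94) and mmu-miR-195a-5p at 0.54 (next 2.45). The log2 ratio of mmu-miR-195a-5p to mmu-miR-16-5p was -11.09 in its lowest library (next -9.33). A single C library gave the lowest mmu-miR-16-5p and mmu-miR-15a-5p. A single B library gave the lowest mmu-miR-195a-5p and the lowest ratio, so the flags are not independent.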

How the results depend on the processing

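Of 637 values recomputed under the alternatives, 558 kept their direction and their side of the threshold (or, for counts of members, stayed within 1.5 times). At 13.5 v 12 months the number of the 4 tested members past the threshold was 0 with library totals, 1 with no filter and 3 with 1 RUVs factor, which added mmu-miR-15a-5p. At 15 v 12 months it was 4 with library totals, where the median of all 105 microRNAs was -0.84 and the members lay -0.05 to -0.41 from it, 2 with 1 or 3 RUVs factors and with limma-voom, and 0 with no filter, without the miR-486 rows and without the B libraries. At 16.5 v 12 months it was 0 with library totals, with no filter and without the outlying library, and at 16.5 v 15 months it was 3 with library totals. Signs turned only where neither value passed. mmu-miR-16-5p at 13.5 v 12 months became -0.0033 with DESeq2 or median-ratio factors, -0.03 with no filter or limma-voom and -0.01 without the B libraries. mmu-miR-15b-5p at 16.5 v 15 months became -0.05 with DESeq2 or median-ratio factors, -0.07 with these ages alone or without the miR-486 rows and -0.03 without the B libraries. mmu-miR-15a-5p there became 0.42 with library totals and 0.0035 with 3 RUVs factors. mmu-miR-15b-3p became -0.00068 and -0.42 with library totals at 16.5 v 12 and 15 v 13.5 months, but stood at 0.25 and 0.39 relative to the medians of all microRNAs (-0.25 and -0.81), and became 0.02, -0.03 and -0.04 with 3 RUVs factors at 15 v 12, 16.5 v 12 and 16.5 v 15 months.

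For log2 ratios of mmu-miR-15a-5p to mmu-miR-16-5p, the difference of medians gave -0.08 at 15 v 12 months, and calls were lost at 15 v 13.5 months with a pseudocount of 1 (-0.33), medians (-0.34) and without the B libraries (-0.33), and at 16.5 v 15 months with medians (-0.23) and without the B libraries (-0.26). The ratio of mmu-miR-195a-5p to mmu-miR-16-5p passed with medians at 15 v 13.5 (0.71) and 16.5 v 15 months (-0.55), and without the B libraries at 15 v 12 (0.50), 15 v 13.5 (0.66) and 16.5 v 15 months (-0.46). The lowest mmu-miR-195a-5p library of 15 months (0.54 log2 CPM, 2 counts) was among the B libraries. The causes were not tested.

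Library names start with 10 numbers, each seen once per age and in no label. Same-numbered libraries deviated together (r above 0.1) in 24 of 60 pairs, and 4 of 60 correlated best with their own number, so the number was not taken as pairing. Over the pairs of ages the median r ran from -0.261 to 0.245 for the same number and from -0.0338 to 0.103 for other numbers. Whether the numbers name the animals cannot be told from these values. As a replicate block the number gave 35 calls in place of 31 at 13.5 v 12 months and 66 in place of 64 over age. Elsewhere it gave fewer calls. There were 23 in place of 25 both at 15 v 12 and at 16.5 v 12 months, and 49 in place of 50 at 15 v 13.5 months. At 16.5 v 13.5 months there were 40 in place of 42, and at 16.5 v 15 months 28 in place of 30. The block changed no call of a member. In paired sign-flip tests calls were lost for mmu-miR-15a-5p to mmu-miR-16-5p at 16.5 v 12 (-0.23) and 16.5 v 15 months (-0.26) and for the arms of miR-15a at 16.5 v 15 months (0.74). The block, the B-library removal and the ratios of all hairpins were chosen after seeing the data. Among the members, depth limits mmu-miR-195a-5p and mmu-miR-15b-3p most, at 15 months. The partner arm mmu-miR-15a-3p had still fewer counts there (median 17.5).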
